A study of Mus musculus with 5 samples.

Results

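Integrins are the transmembrane receptors through which cells hold on to the extracellular matrix. Each receptor is a pair of 1 alpha and 1 beta chain, the alpha chain sets most of the ligand preference, and the beta chain tail binds talin and kindlin, which switch the receptor to its active form and tie it to actin. C3G, encoded by Rapgef1, is an exchange factor for the small GTPase Rap1, which acts upstream of that switch. Mouse ES cells are known to attach mainly through beta1 integrins that bind laminin and fibronectin. The genes described here are Itga3, Itga5, Itga6, Itga7, Itgav, Itgae, Itgb1, Itgb4, Itgb5 and Itgb7. They were chosen by name as alpha and beta chain genes, with earlier results of these data known. Shares among them are thus those of a chosen set. They make up 10 of the 55147 gene symbols in the table. Another 17 integrin genes were set beside them.

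RNA was sequenced from 3 samples of WT cells, the E14Tg2a mouse ES cell parent line, and from 2 samples of C3G null cells, labelled C3G-KO, which are E14Tg2a cells with a puromycin cassette driven by the EF1 alpha promoter knocked in by CRISPR in place of exons 2 to 4 of Rapgef1. Both groups were grown with serum and LIF on gelatin. Null lines were grown from single puromycin-resistant colonies, the labels do not give which line each sample came from, and the WT cells had neither the cassette nor the selection, so loss of C3G, the cassette and clonal differences cannot be told apart. The labels also do not say whether samples of a group were separate cultures, and p-values measure the spread between these samples. In bulk RNA, fewer cells of a type and less RNA per cell cannot be told apart.

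Values are TPM, reads of a transcript set against its length and against the sample's total, summed over the transcripts of a gene. Of the TPM of each sample, small non-coding RNAs took 62.9%, 63.5% and 67.2% in WT against 77.8% and 69.6% in C3G null cells, which left less of the fixed total for all other genes in the null samples. Fold changes and tests were therefore computed on scaled TPM, and TPM as deposited were tested beside them. For scaled TPM each sample was divided by the median ratio of its genes to their geometric mean over samples. That takes the median gene as unchanged, which was not tested. The factors did not follow the small RNA share alone. They were 1.39 and 1.22 for WT replicates 1 and 2, whose shares were 62.9% and 63.5%. The median log2 fold change of the 12518 tested genes was 0.023 on scaled TPM and -0.55 on TPM as deposited. Rapgef1 itself had 11.56, 10.31 and 9.64 TPM in WT and 3.92 and 5.55 TPM in C3G null cells, with a log2 fold change of -0.39 on scaled TPM (limma adjusted p = 0.00841) and -0.11 once corrected for the length and GC content of transcripts (limma adjusted p = 0.254). Most of the gene lies outside the replaced exons, so its summed level does not check the deletion. The ES cell markers Pou5f1, Nanog, Sox2, Zfp42, Esrrb and Dppa5a summed to between 2011 and 2133 TPM in WT and between 1663 and 2144 TPM in C3G null cells. These sums, and those of the other markers, are of TPM as deposited, where the median gene was lower in C3G null cells. On scaled TPM 1 of the 6 ES cell markers was called higher and 0 lower, against 12.8% and 14.9% of all tested genes. No marker of another cell type was at 0 in all samples. Trophoblast markers summed to 7.38 to 9.78 TPM in WT and 1.66 to 2.66 TPM in C3G null cells, mesoderm markers to 4.35 to 6.16 and 0.65 to 1.45 TPM, fibroblast markers to 4.45 to 6.24 and 1.75 to 2.9 TPM, and primitive endoderm markers to 3.82 to 4.97 and 3.58 to 7.05 TPM. On scaled TPM 2 of 3 tested trophoblast, 2 of 2 fibroblast and 1 of 1 mesoderm markers were called lower. For primitive endoderm 1 of 1 was called higher. Whether these markers passed the filter through the WT samples alone was not counted. Whether such cells were present, and their part in the integrin values, was not tested.

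Transcripts of 7 of the 10 integrin genes were lower in C3G null cells, those of Itgb7 were higher, and Itga7 and Itgae were under the filter of 1 TPM in at least 2 samples and were not tested. In ratios of mean scaled TPM with no pseudocount, the fall was largest for Itga3, the alpha chain of a laminin receptor, at 7.29-fold. Itgb4, the beta partner of Itga6 in hemidesmosomes, was 5.07-fold lower, with only 0.13 and 0.29 TPM in the null samples. The fitted log2 fold changes, on log2 of scaled TPM + 1, were -2.56 for Itga3 and -0.90 for Itgb4. Itgb1, the common beta chain, kept 58.8% of its WT level, and Itga6 kept 79.4%. Over all tested genes 14.9% were called lower and 12.8% higher. Itgb4 passed the filter through its WT samples alone, so a lower level was partly fixed by its selection. In a fit with no filter, which took in all 10 genes, 7 were again lower and Itgb7 higher, against 4.95% and 3.67% of 33039 genes. On scaled TPM, the C3G null pair was under every WT sample in 7 of the 8 tested genes and over every WT sample in 1, against 26.9% and 30.3% of all tested genes, and it was also under them for Itga7. The median log2 fold change of the 8 tested integrin genes was -0.68, and -0.57 over all 10 with no filter.

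**Figure D1:**
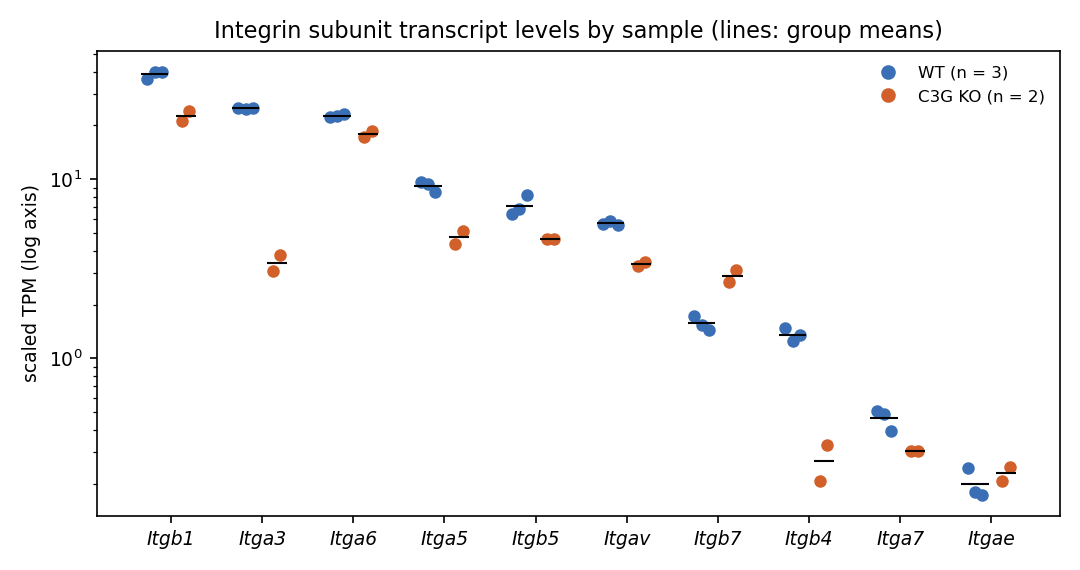
Level of each integrin gene in every sample, in scaled TPM on a log axis, with blue points for the 3 WT samples, orange points for the 2 C3G null samples and lines at the group means. The null points lie under the WT points for 8 genes, lie above them for Itgb7 and overlap them for Itgae.

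On TPM as deposited the same count of 7 integrin genes passed as lower and none as higher. There, 56.8% of all tested genes were called lower and 1.45% higher, and both null samples lay below all WT samples in 75.7%. The median of the integrin genes was -1.17 on that scale. After the correction for length and GC content 7 integrin genes were again called lower, against 14.1% of all genes, and their median was -0.54. Log2 fold change and transcript length were related across genes (Spearman rho -0.31, and 0.028 after it, across 12514 genes that are not independent replicates). The length of a gene is the mean over its transcripts, weighted by TPM. It was 1861 bases for Itgb7, under the median of 2187 bases over tested genes. The other tested integrin genes lay above that median, between 2990 and 5783 bases.

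The 2 tails of Itga6 and Itga3 are shown because their balance is followed further on. Both genes have 2 alternative last coding exons, and the reading frame ends in 1 of them, so that the alpha chain has an A or a B cytoplasmic tail. In the A transcripts shown, the A exon is exon 25 of 26 and the B exon follows it behind the stop codon, so reads in the B exon do not tell the forms apart. The sequences, on GRCm38 from GENCODE M21, give 30 shared coding bases in lower case and the coding bases of the alternative exon in capitals. Itga6 A uses chr2:71853534-71853638 (+ strand, 105 bases, 1073 codons in the whole reading frame) and Itga6 B uses chr2:71855854-71856012 (+ strand, 159 bases, 1091 codons). Itga3 A uses chr11:95046483-95046590 (- strand, 108 bases, 1053 codons) and Itga3 B uses chr11:95045611-95045763 (- strand, 153 bases, 1068 codons).
Itga6 A: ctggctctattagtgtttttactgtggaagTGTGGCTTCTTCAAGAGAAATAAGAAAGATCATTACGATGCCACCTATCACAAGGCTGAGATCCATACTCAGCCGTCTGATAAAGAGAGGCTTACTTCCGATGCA
Itga6 B: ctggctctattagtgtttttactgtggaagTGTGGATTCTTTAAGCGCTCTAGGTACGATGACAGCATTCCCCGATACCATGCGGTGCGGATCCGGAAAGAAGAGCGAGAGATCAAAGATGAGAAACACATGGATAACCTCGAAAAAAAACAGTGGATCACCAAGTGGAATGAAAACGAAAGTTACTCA
Itga3 A: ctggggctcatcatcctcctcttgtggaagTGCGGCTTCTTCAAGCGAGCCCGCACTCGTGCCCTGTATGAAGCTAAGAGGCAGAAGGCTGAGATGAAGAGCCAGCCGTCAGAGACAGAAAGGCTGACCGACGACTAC
Itga3 B: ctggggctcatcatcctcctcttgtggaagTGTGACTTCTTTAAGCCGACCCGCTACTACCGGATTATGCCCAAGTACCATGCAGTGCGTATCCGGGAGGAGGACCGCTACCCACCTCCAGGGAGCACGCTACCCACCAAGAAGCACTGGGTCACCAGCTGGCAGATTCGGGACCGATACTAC

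Among the alpha chains that bind laminin, Itga3 (ENSMUSG00000001507, chr11:95044474-95076801, - strand) had 34.65, 30.27 and 27.48 TPM in WT and 1.93 and 3.33 TPM in C3G null cells. The null samples were far below every WT sample, and no other integrin gene differed as much. On scaled TPM the mean was 24.9 ± 0.177 for WT (SD, n = 3) against 3.42 ± 0.484 for C3G null cells (SD, n = 2), a log2 fold change of -2.56 (SE 0.0897, 95% interval -2.77 to -2.34, limma adjusted p = 2.39e-05). It was -3.15 on TPM as deposited and -2.29 after the length and GC correction. None of the 27 tested genes within 1 Mb of Itga3 fell as far, and their median was 0.059.

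Itga6 (ENSMUSG00000027111, chr2:71745616-71858416, + strand), which pairs with the beta1 or the beta4 chain, had 30.92, 27.76 and 25.28 TPM in WT and 10.87 and 16.54 TPM in C3G null cells. On scaled TPM the groups were closer, with 22.3, 22.7 and 23.1 in WT and 17.3 and 18.7 in C3G null cells, and still did not overlap. The log2 fold change was -0.32 (SE 0.0800, 95% interval -0.51 to -0.13, limma adjusted p = 0.0274), the smallest fall among the 7 called genes. Only without WT replicate 1, of the 5 samples left out in turn, did it stay past the threshold. Without WT replicates 2 and 3 the limma adjusted p was 0.122 and 0.0665, and without C3G null replicates 1 and 2 it was 0.103 and 0.0505. Itga7 (ENSMUSG00000025348, chr10:128933818-128958282, + strand), a laminin-binding chain best known from muscle, had 0.71, 0.60 and 0.43 TPM in WT and 0.19 and 0.27 TPM in C3G null cells. These values do not overlap but stayed under the filter, and in a fit with no filter its log2 fold change was -0.17 (limma adjusted p = 0.202).

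The chains that recognise RGD motifs in fibronectin and vitronectin were lower as well, with smaller fold changes than Itga3. Itga5 (ENSMUSG00000000555, chr15:103344286-103366763, - strand), the alpha chain of the classical fibronectin receptor, had 13.52, 11.48 and 9.35 TPM in WT and 2.74 and 4.58 TPM in C3G null cells. Its null samples lay below all WT samples on both scales, and on scaled TPM the null mean was 51.7% of the WT mean. The log2 fold change was -0.83 (SE 0.0942, 95% interval -1.05 to -0.60, limma adjusted p = 0.00148). Itgav (ENSMUSG00000027087, chr2:83724397-83806916, + strand), which pairs with several beta chains, had 7.86, 7.19 and 6.06 TPM in WT and 2.06 and 3.04 TPM in C3G null cells. The groups were apart on scaled TPM as well, where the null mean was 59.0% of the WT mean. Its log2 fold change was -0.62 (SE 0.0694, 95% interval -0.78 to -0.45, limma adjusted p = 0.00141).

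Itgb1 (ENSMUSG00000025809, chr8:128685654-128733200, + strand), the beta chain that all of Itga3, Itga5, Itga6, Itga7 and Itgav can join, had the highest level of the family, with 50.25, 48.55 and 43.61 TPM in WT and 13.25 and 21.47 TPM in C3G null cells. On scaled TPM it had 36.2, 39.7 and 39.9 in WT and 21.1 and 24.3 in C3G null cells, with no overlap. Its log2 fold change was -0.74 (SE 0.0997, 95% interval -0.98 to -0.50, limma adjusted p = 0.00279), and -0.72 after the length and GC correction. Itgb5 (ENSMUSG00000022817, chr16:33829665-33949338, + strand), which pairs with the alphaV chain to bind vitronectin, had 8.89, 8.35 and 8.91 TPM in WT and 2.93 and 4.10 TPM in C3G null cells. The WT samples were close to each other as deposited and spread to 6.40, 6.83 and 8.14 on scaled TPM, still above the null samples at 4.67 and 4.63. The log2 fold change was -0.52 (SE 0.103, 95% interval -0.76 to -0.27, limma adjusted p = 0.0122), which missed the threshold without C3G null replicate 1 (limma adjusted p = 0.0538) or without replicate 2 (limma adjusted p = 0.0587).

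Itgb4 (ENSMUSG00000020758, chr11:115974709-116008412, + strand), whose long tail links laminin receptors to keratin filaments, was a low gene with 2.06, 1.52 and 1.47 TPM in WT and 0.13 and 0.29 TPM in C3G null cells. It passed the filter through its WT samples only, and every null sample was far below them. On scaled TPM the mean was 1.36 ± 0.120 for WT (SD, n = 3) against 0.267 ± 0.0851 (SD, n = 2) among the null samples. Its log2 fold change in the fit with no filter was -0.90 (SE 0.0955, 95% interval -1.13 to -0.66, limma adjusted p = 0.00903), a value held down by the pseudocount of 1 TPM, and with a pseudocount of 0.1 TPM it was -2.00. The keratinocyte markers Krt5, Krt14 and Trp63 summed to 0.74 to 0.81 TPM as deposited in WT and 0.09 to 0.10 TPM in C3G null cells. Most of it came from Krt14, and the part of such cells in the Itgb4 values was not tested.

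Itgb7 and Itgae encode a pair best known from leukocytes, where the alphaE chain joined to the beta7 chain binds E-cadherin. Itgb7 (ENSMUSG00000001281, chr15:102215995-102231944, - strand) had 2.39, 1.89 and 1.57 TPM in WT and 1.68 and 2.76 TPM in C3G null cells, and these values overlap. On scaled TPM it had 1.72, 1.55 and 1.43 in WT and 2.68 and 3.12 in C3G null cells, and there both null samples were above all WT samples. Its log2 fold change was 0.60 on scaled TPM (SE 0.0896, 95% interval 0.39 to 0.82, limma adjusted p = 0.00414), 0.69 after the length and GC correction (limma adjusted p = 0.00455) and 0.12 on TPM as deposited (limma adjusted p = 0.600), so the rise of Itgb7 rests on the scaling. Itgae (ENSMUSG00000005947, chr11:73090583-73147446, + strand) had 0.34, 0.22 and 0.19 TPM in WT and 0.13 and 0.22 TPM in C3G null cells, under the filter and overlapping. With no filter its log2 fold change was 0.034 (limma adjusted p = 0.702). The 8 leukocyte markers summed to 5.86 to 6.95 TPM as deposited in WT and 3.11 to 4.42 TPM in C3G null cells. Most of it came from Cd68, which reached 6.19 TPM, while Ptprc was at 0.04 TPM or less in every sample. On scaled TPM 1 of the 8 was tested, and it was called neither lower nor higher. The part of such cells in the Itgb7 values was not tested.

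**Figure D2:**
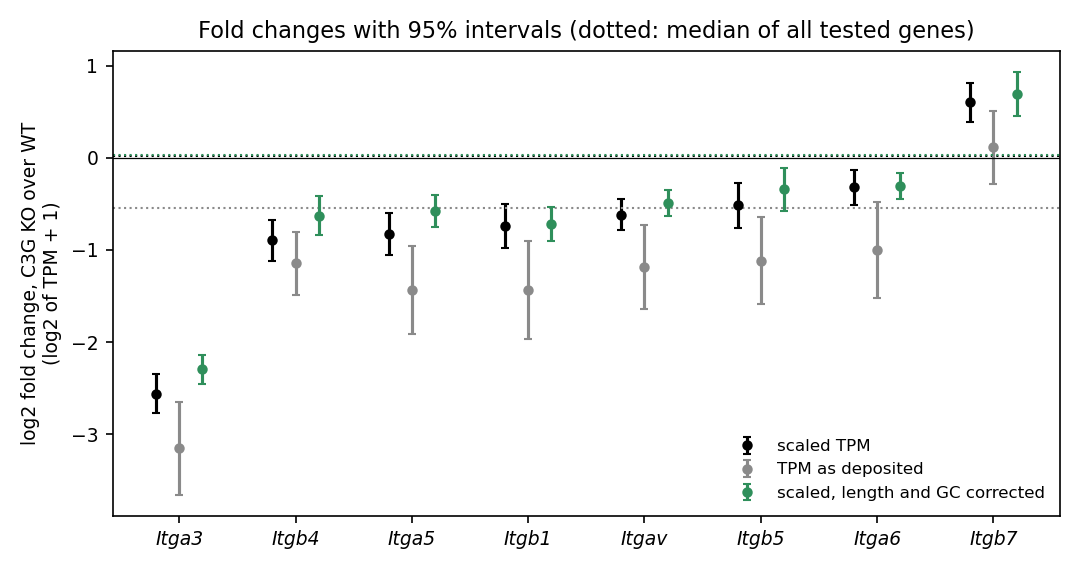
Log2 fold change of C3G null over WT cells for the 8 tested integrin genes, with 95% intervals from limma, on scaled TPM (black), TPM as deposited (grey) and scaled TPM corrected for length and GC content (green); dotted lines give the median of all tested genes on each scale. Itga3 lies lowest on every scale, and for Itgb7 the grey interval includes 0 while the black and green intervals lie above it.

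The order of levels within the family was not the same in both groups. In WT the mean TPM ran from Itgb1 at 47.5 through Itga3 at 30.8, Itga6 at 28.0, Itga5 at 11.5, Itgb5 at 8.72, Itgav at 7.04, Itgb7 at 1.95, Itgb4 at 1.68 and Itga7 at 0.58 to Itgae at 0.25. Of neighbours in that order, only Itga3 with Itga6 and Itgb7 with Itgb4 overlapped between samples. Within each WT sample, though, Itga3 was above Itga6 and Itgb7 above Itgb4. In C3G null cells Itgb1 at 17.4 and Itga6 at 13.7 led and overlapped, and Itga5, Itgb5, Itga3, Itgav and Itgb7 followed between 3.66 and 2.22, each overlapping the next. Itga7, Itgb4 and Itgae came last, between 0.23 and 0.175, and also overlapped. Within each null sample Itgb1 was above Itga6, Itgb5 above Itga3 and Itgav above Itgb7. The order of Itga5 with Itgb5, Itga3 with Itgav and Itga7 with Itgb4 differed between the null samples. Itgb4 and Itgae were level in C3G null replicate 1. Itga3 stood beside Itga6 in WT and among the middle genes in C3G null cells. The levels and sums given here are TPM as deposited, where 56.8% of all tested genes were called lower in C3G null cells. The 10 genes summed to 151.59, 137.83 and 124.35 TPM in WT and 35.91 and 56.6 TPM in C3G null cells. Itga3 made up 22.9%, 22.0% and 22.1% of that sum in WT and 5.37% and 5.88% in C3G null cells, while Itgb1 made up 33.1%, 35.2% and 35.1% and then 36.9% and 37.9%.

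The ratio of an alpha to a beta chain transcript within 1 sample does not depend on the scaling between samples, and it was taken for 10 combinations. It is a ratio of transcripts and not of proteins, and it was not corrected for length and GC content. With 3 against 2 samples the exact two-sided permutation test cannot go below p = 0.2, so none can pass a threshold of 0.05, and p adjusted over the 10 ratios was 0.286 for each of the 7 ratios whose groups did not overlap. Itga3 over Itgb1 was 0.690, 0.623 and 0.630 in WT and 0.146 and 0.155 in C3G null cells, a difference of -2.11 on the log2 scale (exact permutation p = 0.2). Itga6 over Itgb1 went the other way, from 0.615, 0.572 and 0.580 in WT to 0.820 and 0.770 in C3G null cells (log2 difference 0.43, exact permutation p = 0.2). Both are seen against a fall of Itgb1 itself, of which Itga3 fell more and Itga6 less.

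Itga5 over Itgb1 was 0.269, 0.236 and 0.214 in WT and 0.207 and 0.213 in C3G null cells, apart by a narrow margin (log2 difference -0.19). The log2 fold changes of Itga5 and Itgb1 were -0.83 and -0.74 on scaled TPM. After the length and GC correction they were -0.58 and -0.72, so there Itga5 fell less than Itgb1. Itgav over Itgb1 overlapped, with 0.156, 0.148 and 0.139 in WT and 0.155 and 0.142 in C3G null cells (log2 difference 0.0070, exact permutation p = 1). Itga3 over Itga6, the balance of the main laminin-binding chains, was 1.12, 1.09 and 1.09 in WT and 0.178 and 0.201 in C3G null cells. That was the widest of the 10 differences, at -2.54 on the log2 scale. Itgb4 over Itga6 was 0.0666, 0.0548 and 0.0581 in WT and 0.0120 and 0.0175 in C3G null cells (log2 difference -2.04). Itgb5 over Itgav overlapped, at 1.13, 1.16 and 1.47 in WT and 1.42 and 1.35 in C3G null cells. Itgae over Itgb7 was 0.142, 0.116 and 0.121 in WT and 0.0774 and 0.0797 in C3G null cells (log2 difference -0.68), with Itgae at 0.34 TPM or less. Itga7 over Itgb1 was between 0.00986 and 0.0141 in WT and at 0.0143 and 0.0126 in C3G null cells, and overlapped. Among the 10 genes, the 5 alpha chains that join Itgb1 were summed. The sum was 1.74, 1.59 and 1.57 times Itgb1 in WT and 1.34 and 1.29 times in C3G null cells (log2 difference -0.31). Itga1, Itga8 and Itga9, whose chains also pair with the beta1 chain, were not in it.

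**Figure D3:**
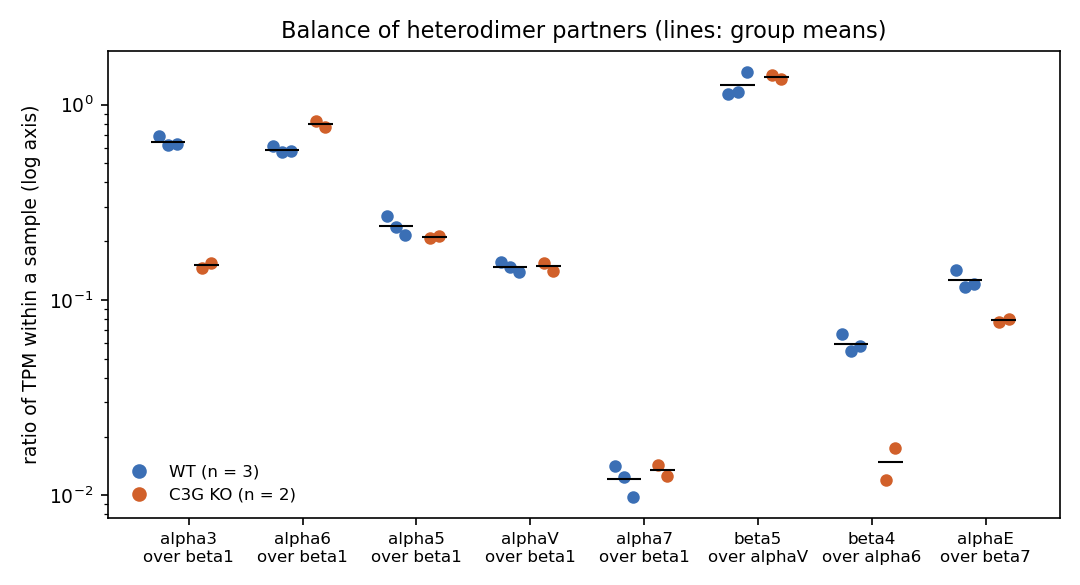
Ratio of alpha and beta chain TPM within each sample for 8 pairs, on a log axis, with blue points for WT (n = 3), orange points for C3G null cells (n = 2) and lines at the means. Alpha3 over beta1 and beta4 over alpha6 are lower in the null samples, alpha6 over beta1 is higher, and alphaV over beta1 overlaps.

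The table lists 60 transcripts of the 10 genes, of which 11 were at 0 in all samples and 13 passed the filter. Of these 13, 8 were lower and 0 higher in C3G null cells, against 4.28% and 2.65% of the 25166 transcripts tested. Itga3-202, Itga3-206 and Itga6-201 are among the 8 and passed the filter through the WT samples alone, so their lower level was partly fixed by the filter and no p is given for them. The fall of Itga3 was carried by Itga3-201, which codes for the A tail, with 24.42, 23.49 and 19.11 TPM in WT and 1.22 and 2.16 TPM in C3G null cells (log2 fold change -2.58, limma adjusted p = 0.0011). It was the 1 transcript that passed in every fit with a sample left out. The short Itga3-206 had 4.82, 2.85 and 3.48 TPM in WT and 0.00 and 0.26 TPM in C3G null cells, with a log2 fold change of -1.80. Itga3-202, Itga5-201, Itgav-201, Itgb1-201 and Itgb5-202, each coding, were also lower, with log2 fold changes from -0.97 to -0.52. Itgb1-201 held 90.0%, 94.7% and 94.6% of the Itgb1 TPM in WT and 94.9% and 93.4% in C3G null cells, and these shares overlap. For Itgb7 the full coding transcript Itgb7-201 had 1.25, 1.21 and 1.46 TPM in WT and 1.11 and 1.47 TPM in C3G null cells. It did not pass on its own (log2 fold change 0.39 on scaled TPM, limma adjusted p = 0.123). Itgb7-204, which retains an intron, had 0.67, 0.41 and 0.00 TPM in WT and 0.35 and 1.03 TPM in C3G null cells. Summed over protein-coding transcripts alone, the log2 fold change of Itgb7 was 0.40 (limma adjusted p = 0.00369). Calls on transcripts were fewer without a sample, from 1 without C3G null replicate 1 to 4 without WT replicate 1 or 3.

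The tail forms of Itga6 were followed transcript by transcript. Itga6-201, an A tail transcript, had 3.36, 3.03 and 2.46 TPM in WT and 0.10 and 0.88 TPM in C3G null cells (log2 fold change -1.15). The other A tail transcript, Itga6-207, held 3.43%, 3.31% and 3.05% of the Itga6 TPM in WT and 3.31% and 2.66% in C3G null cells, which overlap, so the lower A share given next comes from Itga6-201. Itga6-202, the B tail transcript, had 9.20, 8.74 and 7.87 TPM in WT and 4.21 and 5.61 TPM in C3G null cells (log2 fold change -0.086 on scaled TPM, limma adjusted p = 0.610). As a share of A and B transcripts together, the A tail of Itga6 made up 32.5%, 31.1% and 29.1% in WT and 9.85% and 19.0% in C3G null cells. The shares did not overlap, and their means were 30.9% ± 1.69 (SD, n = 3) and 14.4% ± 6.50 (SD, n = 2), which differ by -16.4 percentage points (exact permutation test, two-sided p = 0.2, the smallest it can give). For Itga3 the A tail held 96.4%, 98.2% and 96.9% in WT and 94.2% and 94.0% in C3G null cells. The largest share of the Itga6 TPM in every sample, 47.5% in WT replicate 1 and 50.0% in C3G null replicate 1, was that of Itga6-203, a transcript annotated as non-coding that shares the last exon of the B form. These shares are estimates of how reads divide among overlapping transcripts.

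**Figure D4:**
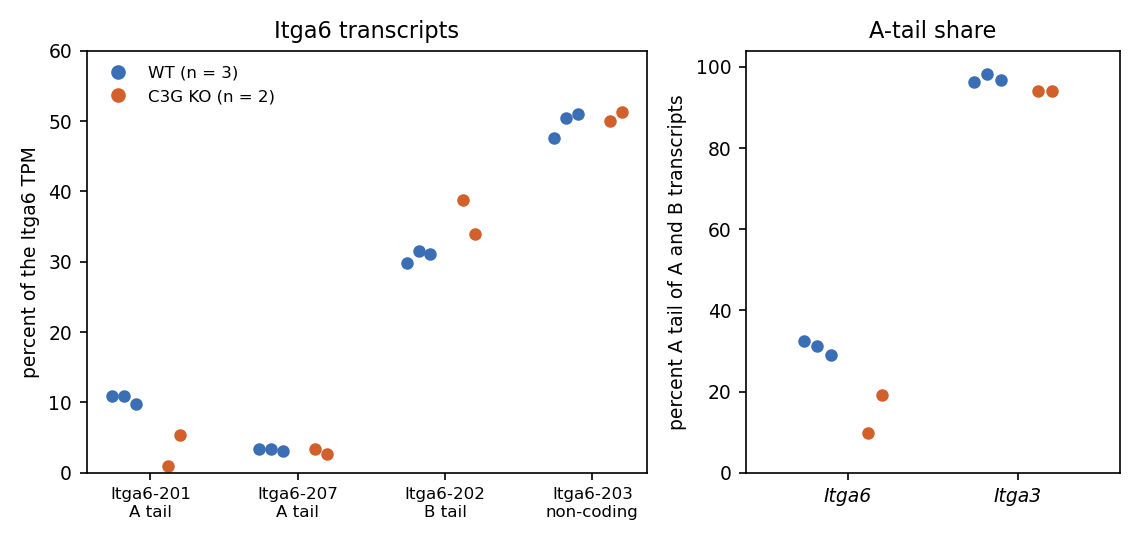
Left, each Itga6 transcript as a percent of the Itga6 TPM in each sample; right, the A tail as a percent of A and B tail transcripts for Itga6 and Itga3. Blue points are WT (n = 3) and orange points C3G null samples (n = 2). The A tail share of Itga6 is 29.1% or more in WT and 19.0% or less in C3G null samples, and that of Itga3 lies between 94.0% and 98.2% in all samples.

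Upstream sequence is shown for the integrin genes with the largest fall and the rise. Promoter windows from RefSeq (GRCm38.p6) were found for 6 of the 10 genes, in 7 windows, and the 250 bases before each start were searched on both strands for GGAATG, the TEAD site, TGACTCA, the AP-1 site, GGGCGG, the GC box, and the CArG box of serum response factor. These were in 12.6%, 4.46%, 32.7% and 1.47% of 32851 windows. The first Itga3 start had 3 GC boxes, beginning 178, 144 and 35 bases before it, and the Itgb7 start had none of the 4 motifs. The Itga3 box at 35 bases lies inside the gene as GENCODE M21 annotates it, so it is not in the stretch printed below. Itga5 had 2 GC boxes, Itgb5 had 3, Itgb1 had 1 and also 1 GGAATG, and Itgav had none. The stretches below lie outside the annotated gene, with GC boxes in capitals, and were read on the gene's strand from chr11:95076802-95076964 (- strand, 163 bases) for Itga3 and chr15:102231945-102232185 (- strand, 241 bases) for Itgb7. The motif counts describe letters in these windows.
Itga3 upstream: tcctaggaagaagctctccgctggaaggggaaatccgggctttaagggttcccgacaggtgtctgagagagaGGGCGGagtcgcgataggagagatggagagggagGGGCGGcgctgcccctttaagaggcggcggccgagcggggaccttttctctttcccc
Itgb7 upstream: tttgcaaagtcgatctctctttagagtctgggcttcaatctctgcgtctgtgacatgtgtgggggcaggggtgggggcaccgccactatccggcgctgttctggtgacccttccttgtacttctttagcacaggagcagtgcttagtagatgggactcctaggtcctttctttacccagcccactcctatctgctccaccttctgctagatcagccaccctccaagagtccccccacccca

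Several genes of the family share a chromosome. Itga5, which was lower, and Itgb7, which was higher on scaled TPM, lie on chromosome 15. Itga3 and Itgb4 on chromosome 11 were both lower, as were Itga6 and Itgav on chromosome 2, and Itgae on chromosome 11 was not tested. The tested genes within 1 Mb had median log2 fold changes of -0.074 around Itga5 (n = 19), -0.074 around Itgb7 (n = 29), 0.27 around Itga6 (n = 13), -0.039 around Itgav (n = 12), -0.10 around Itgb1 (n = 2), -0.052 around Itgb4 (n = 50) and 0.032 around Itgb5 (n = 15). No annotated gene overlaps Itga3, Itgb1, Itgb5 or Itgb7. At least 1 overlaps each of the others, and whether the reads kept strand is not given in the sources used here, so reads from the overlaps may be counted for either gene.

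Among the 17 other integrin genes, 3 passed the filter and 14 stayed at 0.47 TPM or less in every sample, the highest being Itgal. Itga8 had 1.12, 1.08 and 0.92 TPM in WT and 0.11 and 0.26 TPM in C3G null cells (log2 fold change -0.58, and -1.52 with a pseudocount of 0.1 TPM). Itga1, a collagen-binding chain, had between 1.03 and 1.59 TPM in WT and 0.31 and 0.55 TPM in C3G null cells, and its log2 fold change was -0.38, and -0.77 with a pseudocount of 0.1 TPM. Both passed the filter through the WT samples alone, and in the fit with no filter the limma adjusted p was 0.0175 for Itga8 and 0.0736 for Itga1. Both chains pair with the beta1 chain, as do those of Itga3, Itga5, Itga6, Itgav and Itga9. Itga9 had 6.07, 5.97 and 5.40 TPM in WT and 2.74 and 4.41 TPM in C3G null cells, with a log2 fold change of -0.014 on scaled TPM (limma adjusted p = 0.916).

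On the inner side of the membrane, 21 of 24 activators and adaptors were tested, of which 11 were lower, 0 higher and 10 did not pass, with a median log2 fold change of -0.40, beside 14.9% lower, 12.8% higher and a median of 0.023 over all tested genes. Of the 11 lower genes 2 passed the filter through the WT samples alone. The largest falls were those of Zyx, a focal adhesion protein, at -1.79 (limma adjusted p = 6.31e-05), and Parva, part of the complex with integrin-linked kinase, at -1.50, which is 1 of these 2. Of 7 negative regulators that bind integrin tails 3 were lower and 0 higher (median -0.20), among them Dok1 at -0.77. Of 12 lateral partners in the membrane 11 were tested, and 5 were lower and 0 higher (median -0.33), with Plaur, the urokinase receptor, at -1.68 and Cav1, a caveola coat protein, at -1.25. The order of these depends on the pseudocount, since with 0.1 TPM Cav1, which passed the filter through the WT samples alone, was at -3.42 and Plaur at -1.82.

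Outside the cell, 20 of 25 integrin ligands were tested, of which 10 were lower and 1 higher, with a median of -0.44. Over all tested genes on scaled TPM 14.9% were lower and 12.8% higher. Of the 10 lower ligands 4, Thbs1 among them, passed the filter through the WT samples alone. Thbs1 fell by 3.21 on the log2 scale and Ccn1 by 2.41, and Lama1, a laminin chain, rose by 0.72 (limma adjusted p = 0.00130). Of 8 genes listed as hemidesmosome partners of Itga6 and Itgb4, keratins among them, 5 were tested and 4 were lower (median -1.07). The largest falls were those of the keratins Krt8 at -3.04 and Krt18 at -3.00. That list shares a gene with the lateral partners. Of 11 genes for folding and trafficking of integrins 10 were tested, with a median of 0.061. Of these 1 was lower (Furin, which cleaves alpha chains, at -0.42) and 1 higher (Rab4a, a recycling GTPase, at 0.45). These counts were not above the shares over all tested genes. On TPM as deposited the counts of lower genes were 17, 6, 10, 19, 5 and 6 in these 6 lists, in the order given, and 3 among the other integrin genes, with 0 higher in any of the 7, where 56.8% of all tested genes were lower and 1.45% higher. There the log2 fold change of Lama1 was 0.12 (limma adjusted p = 0.642) and that of Rab4a -0.19 (limma adjusted p = 0.484). Of all 12518 tested genes, 14.1% were lower and 2064 higher once corrected for length and GC content. After the length and GC correction 8 activators and adaptors were lower and 1 higher (median -0.18), 2 and 0 negative regulators (-0.074), 7 and 0 lateral partners (-0.37), 9 and 3 ligands (-0.24), 4 and 0 partners of Itga6 and Itgb4 (-0.55), 0 and 2 folding and trafficking genes (0.10) and 1 and 0 other integrin genes (-0.27), and Itga1 and Furin no longer passed (limma adjusted p = 0.0590 and 0.211).

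**Figure D5:**
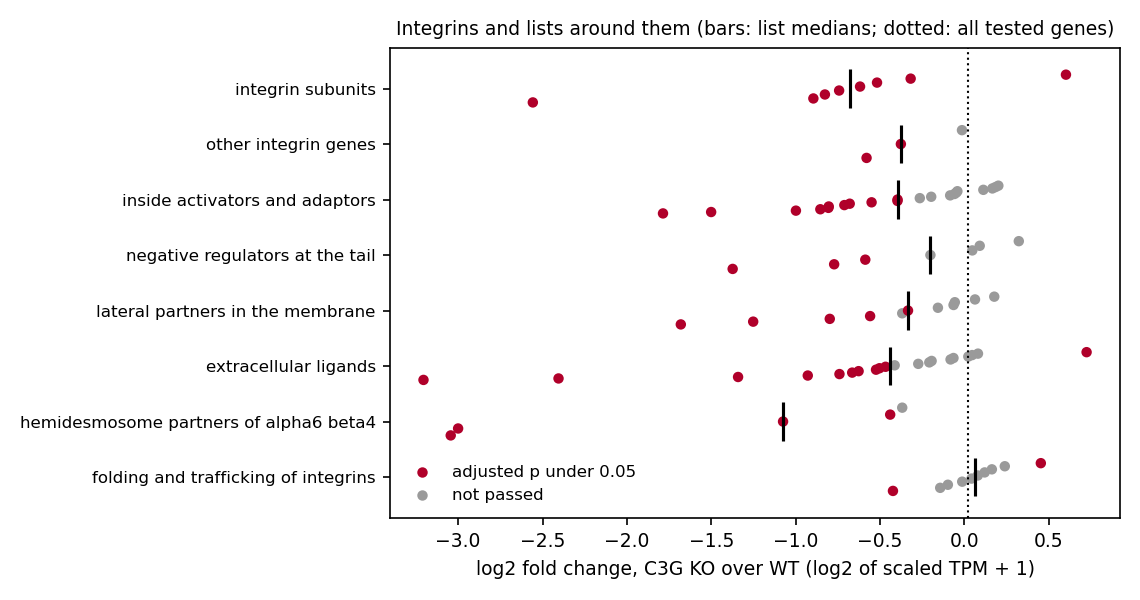
Log2 fold change on scaled TPM of the tested integrin genes and of 7 lists around them, 1 point a gene, red where the limma adjusted p was under 0.05 and grey where it was not; black bars are list medians and the dotted line the median of all tested genes at 0.023. The integrin bar stands at -0.68, the folding and trafficking bar at 0.061.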

How the data were processed

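Paired-end reads were made from total RNA of 3 WT and 2 C3G null samples of mouse ES cells. The authors checked reads with FastQC, aligned them to GRCm38 with STAR and deposited TPM for 142647 transcripts, rounded to 2 decimals. Processing notes of the submitters also name bcl2fastq 2.20, FastQC 0.11.7, STAR 2.5.1b and RSEM 1.2.31. The deposited TPM sum to 999998 to 1000001 per sample and hold no read counts, so depth and counting error are unknown, and precision is set by how few samples there are. GENCODE M21 held 141524 of these transcripts, which were summed to 55147 gene symbols (113 with several identifiers), and 1123 were left out.

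TPM were scaled by the median of ratios over genes above 0 in all 5 samples (factors 1.39, 1.22 and 1.09 in WT, 0.627 and 0.885 in C3G null cells). Genes with at least 1 TPM in at least 2 samples, 12518 in all, were compared with limma (3.58.1, R 4.3.3) on log2(scaled TPM + 1), with eBayes fitting a trend of variance on mean; tests were two-sided and p-values adjusted by the Benjamini-Hochberg method over all tested genes, with a threshold of 0.05. A fold change on this scale understates that of low genes. Prior degrees of freedom were 3.74 on scaled TPM and infinite on TPM as deposited, so for the latter a gene's own spread does not enter its p-value. Transcripts were fitted in the same way with the same factors, and ratios were compared by the exact two-sided permutation test. The length and GC correction subtracted a smooth trend (span 0.5) from each sample.

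The integrin genes and the lists were chosen with earlier results of these data known. By rule, all 10 integrin genes, Rapgef1, other integrin genes that passed the filter and, from each list, up to 2 called genes with the greatest rise and 2 with the greatest fall were named, and Itgal, Cd68, Ptprc, Krt5, Krt14 and Trp63 were named in addition. One gene that the rule takes is not reported here. The alternatives were TPM as deposited, quantile normalization, factors from protein-coding genes, a pseudocount of 0.1 or of 5, a filter of 5 TPM, no filter, no trend, the length and GC correction, a replicate block, both together and each sample left out. Factors from the tested genes and protein-coding transcripts alone were added after seeing the data. The fit was tested on simulated data. Python 3.11.15, pandas 2.3.3, scipy 1.17.1 and matplotlib 3.10.9 were used.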

Additional observations from a re-analysis of the deposited data

How the results depend on the processing

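Itga3, Itga5, Itgav, Itgb1 and Itgb4 kept their direction and an adjusted p under 0.05 under all 18 alternatives (17 for Itgb4, which a filter of 5 TPM removes and which passes the filter of 1 TPM through WT samples alone), with log2 fold changes from -3.15 to -1.83, -1.43 to -0.54, -1.19 to -0.36, -1.44 to -0.65 and -2.00 to -0.27. No call reversed. Itga6 missed the threshold with the replicate block (-0.31, limma adjusted p = 0.0559) and with block and length and GC correction together (-0.30, 0.0506), and ranged from -0.37 to -0.27 with a sample left out (adjusted p up to 0.122). Itgb5 missed it with block and correction together (-0.26, 0.0844) and without C3G null replicate 1 (-0.53, 0.0538) or 2 (-0.51, 0.0587), and ranged from -0.58 to -0.43 with a sample left out. Itgb7 was 0.12 on TPM as deposited (limma adjusted p = 0.600), so 0 integrin genes were higher there, and 0 with a filter of 5 TPM, where it was not tested. The cause was not tested.

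The median of the tested integrin genes was -1.17 on TPM as deposited, -0.60 after quantile normalization, -0.75 and -0.34 with pseudocounts of 0.1 and 5, -0.57 without a filter, -0.54 after the length and GC correction, -0.56 with that and the block, -0.62 on protein-coding transcripts and -0.74 to -0.63 with a sample left out. The log2 ratio of Itgb4 over Itga6 ranged from -2.32 to -1.77 and that of Itga3 over Itga6 from -2.63 to -2.45 with a sample left out.

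Over all genes, 1868 were lower and 1603 higher, of which calls 46.2% were higher. On TPM as deposited these were 7109, 181 and 2.48%. A filter of 5 TPM gave 972 lower among 7525 genes. With a sample left out, 1180 to 1679 genes were lower and 742 to 1632 higher, with 742 higher without C3G null replicate 2, 957 without C3G null replicate 1, 937 without WT replicate 2 and 1180 lower without C3G null replicate 1. Lower integrin genes then numbered 5 to 7 and their lower transcripts 1 to 4 instead of 8. Lower genes numbered 1 instead of 2 among other integrin genes without any sample but WT replicate 3 (range 1 to 2), 3 instead of 5 among lateral partners without WT replicate 2 or C3G null replicate 2 (range 3 to 6), and 0 instead of 1 among folding and trafficking genes without C3G null replicate 1 (range 0 to 1). Higher genes of that last list numbered 0 without either C3G null sample. On TPM as deposited lower genes numbered 17 activators and adaptors, 6 negative regulators, 10 lateral partners, 19 ligands and 6 folding and trafficking genes. In each of these lists 0 genes were higher there.

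The labels do not say that equal replicate numbers mark a shared batch, and the deviations of equally numbered samples correlated at -0.17 for pair 1 and 0.18 for pair 2 (Pearson r across genes), so the samples were not treated as paired. WT 3 and C3G null 2, whose library names share another number, correlated at -0.33. The replicate block gave 6 lower integrin genes and 1 higher, 1697 lower and 1800 higher genes in all and a median of -0.68, and block and correction together gave 5 and 1 integrin genes. Every TPM lacks its read number, so differences among genes under 1 TPM, such as Itga7 and Itgae, could not be judged against counting error.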
